A study of Mus musculus with 54 samples.

Results

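The genes described here mostly encode proteins of the pre-mRNA splicing machinery. The SR group holds the serine/arginine-rich (SR) proteins (*Srsf* genes), and the hnRNP group the heterogeneous nuclear ribonucleoproteins (hnRNPs, *Hnrnp* genes). The snRNP group, named for the small nuclear ribonucleoproteins (snRNPs), holds the *Snrp*, *Lsm*, *Sf3a*, *Sf3b* and *Prpf* genes. It goes by symbol only, and some of its genes, such as *Lsm1* and *Lsm14b*, have roles outside the snRNPs, as given below. All genes were chosen by symbol from the table of raw counts. The symbol had to start with one of these 7 strings followed by letters or digits, not be *Snrpn* and not end in -ps or -rs. At least 1 read was required in more than 6 of the 18 libraries. This gave 75 genes of the 30031 in the table, 11 SR, 17 hnRNP and 47 snRNP genes, and the last fall into 12 *Snrp*, 13 *Lsm*, 9 SF3 and 13 *Prpf* genes. All 75 had reads in all 18 libraries, and all but *Snrpert*, which GENCODE lists as a processed pseudogene, are protein-coding. The RNA came from the suprachiasmatic nucleus (SCN), the hypothalamic pacemaker of the daily rhythm, which was cut by laser-capture microdissection from brain sections of male C3H/HeH mice, 10 to 12 weeks old, kept in a cycle of 12 h of light and 12 h of darkness. Mice were sampled at 6 Zeitgeber times (ZT, hours after lights on): ZT2, ZT6 and ZT10 in the light and ZT14, ZT18 and ZT22 in the dark. Each timepoint had 3 biological replicates, A, B and C, and each replicate was a pool of tissue from 5 mice whose RNA was amplified from about 1 ng before sequencing. No group was treated or carried an introduced mutation, and the comparison throughout is of the timepoints.

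Introns are removed by the spliceosome, which is built anew on each intron from the U1, U2, U4, U5 and U6 snRNPs. Each snRNP is a short RNA held in a ring of Sm proteins (or, for U6, LSm proteins) to which specific proteins are added. SR proteins mostly bind exons and recruit U1 and U2 to weak splice sites, whereas hnRNPs coat the nascent transcript and often oppose them, so that the balance of the 2 families sets the choice between alternative exons. In the SCN, where the molecular clock drives daily waves of transcription, these proteins act on most newly made transcripts.

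Between 15412981 and 35820945 reads per library were counted on genes, with the lowest total in ZT18 replicate C, and levels are given as CPM, reads per 1000000 counted reads, after TMM scaling, as mean ± SD of n = 3. The 18 libraries are grouped here into 3 clusters of neighbouring timepoints (ZT22 and ZT2, then ZT6 and ZT10, then ZT14 and ZT18). The study describes its principal component plot as separating libraries by timepoint and sequencing batch. It judged batch effects to be minimal from the timing of clock genes, and reports that qPCR largely matched the sequencing. The sample labels name no batch, so whether batches follow these clusters is not known. A change of time between clusters and a difference between batches that follow them cannot be told apart. Differences within a cluster are therefore given separately. The counts also differ from a second deposited table of normalized values at ZT6 and ZT10, as described near the end. In ZT6 replicate C and ZT18 replicate C the members stood apart from the other replicates: they were the most distant of the 3 replicates for 46 and 51 of the 75 genes (61.3% and 68.0%), as they were for 44.9% and 55.8% of all genes. Replacing TMM by upper-quartile scaling shifted the median of all genes by -0.18 (ZT14 replicate A) to 0.18 (ZT2 replicate A) on the log2 scale. Summed markers of SCN neurons (7 of 7 tested, among them *Avp* and *Vip*) ranged between 1162 and 4775 CPM and were highest at ZT6 (4277 to 4775 CPM) and ZT10 (3737 to 4518 CPM). Those of oligodendrocytes (6 of 6) were 4716 to 5903 CPM at ZT14 and 5075 to 6071 CPM at ZT18 against 1267 to 3030 CPM at ZT6, and those of astrocytes (5 of 5) were 3174 to 3923 CPM at ZT2 against 1268 to 1577 CPM at ZT10. Microglial (5 of 5), endothelial (4 of 4), neighbouring hypothalamic (6 of 6) and telencephalic excitatory (4 of 4) markers stayed at or below 233, 112, 219 and 217 CPM in every library. The last of these ranged between 13.7 and 16.6 CPM at ZT6 and between 55.5 and 217 CPM at ZT22, and the neighbouring hypothalamic markers between 24.3 CPM in a ZT2 library and 219 CPM in a ZT14 library. *Crh*, *Pmch* and *Hcrt* were at 0 in at least 1 library. The part of these cell types in the results below was not tested, and in tissue RNA fewer cells of a type and less RNA per cell cannot be told apart.

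The promoters of 6 genes are shown because these genes carry the 3 patterns of expression described below: *Snrpf* and *Snrpa* were low at ZT22 and ZT2, *Sf3b3* and *Prpf8* were high there, and *Hnrnpd* and *Hnrnpa1* were high at ZT6 and low at ZT14 and ZT18. Sequences are from RefSeq on GRCm38.p6, 250 bases before to 50 after the start of transcription, 5′ to 3′ on the gene's strand. Capitals mark matches on either strand to 4 short motifs: CACGTG (the E-box, bound by the clock factors CLOCK and BMAL1), TGACGTCA (the CRE, bound by CREB), CCGGAAG (an ETS-type site) and CCAAT (the CCAAT box, bound by NF-Y).
Snrpf, chr10:93589609-93589908, minus strand: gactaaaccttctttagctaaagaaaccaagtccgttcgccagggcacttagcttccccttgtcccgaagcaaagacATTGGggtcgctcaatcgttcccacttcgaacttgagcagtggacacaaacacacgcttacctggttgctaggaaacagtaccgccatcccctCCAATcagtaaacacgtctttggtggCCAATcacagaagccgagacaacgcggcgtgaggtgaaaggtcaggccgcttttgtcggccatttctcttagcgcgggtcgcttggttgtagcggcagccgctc
Snrpa, chr7:27196222-27196521, minus strand: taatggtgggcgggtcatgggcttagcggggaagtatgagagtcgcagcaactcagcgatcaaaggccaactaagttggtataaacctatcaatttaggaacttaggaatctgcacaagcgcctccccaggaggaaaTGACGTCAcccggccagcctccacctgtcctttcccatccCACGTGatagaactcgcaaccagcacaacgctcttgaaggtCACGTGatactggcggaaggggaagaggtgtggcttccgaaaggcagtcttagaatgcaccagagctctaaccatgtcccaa
Sf3b3, chr8:110846754-110847053, minus strand: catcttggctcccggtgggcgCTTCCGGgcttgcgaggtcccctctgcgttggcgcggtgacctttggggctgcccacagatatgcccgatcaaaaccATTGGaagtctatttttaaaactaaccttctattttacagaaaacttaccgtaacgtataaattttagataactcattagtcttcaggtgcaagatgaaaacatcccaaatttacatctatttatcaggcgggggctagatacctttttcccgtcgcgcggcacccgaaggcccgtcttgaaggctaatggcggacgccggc
Prpf8, chr11:75486527-75486826, plus strand: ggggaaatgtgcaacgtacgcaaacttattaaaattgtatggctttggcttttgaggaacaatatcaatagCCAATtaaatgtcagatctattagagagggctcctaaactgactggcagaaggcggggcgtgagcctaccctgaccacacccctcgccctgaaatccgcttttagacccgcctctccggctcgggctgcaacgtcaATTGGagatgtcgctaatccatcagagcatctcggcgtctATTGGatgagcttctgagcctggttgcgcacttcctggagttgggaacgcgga
Hnrnpd, chr5:99978889-99979188, minus strand: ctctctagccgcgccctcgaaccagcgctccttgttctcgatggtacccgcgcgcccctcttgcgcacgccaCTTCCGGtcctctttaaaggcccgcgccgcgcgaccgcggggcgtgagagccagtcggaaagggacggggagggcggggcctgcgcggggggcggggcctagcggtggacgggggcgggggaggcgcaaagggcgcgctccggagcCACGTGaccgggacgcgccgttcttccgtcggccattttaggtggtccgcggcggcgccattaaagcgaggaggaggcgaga
Hnrnpa1, chr15:103240147-103240446, plus strand: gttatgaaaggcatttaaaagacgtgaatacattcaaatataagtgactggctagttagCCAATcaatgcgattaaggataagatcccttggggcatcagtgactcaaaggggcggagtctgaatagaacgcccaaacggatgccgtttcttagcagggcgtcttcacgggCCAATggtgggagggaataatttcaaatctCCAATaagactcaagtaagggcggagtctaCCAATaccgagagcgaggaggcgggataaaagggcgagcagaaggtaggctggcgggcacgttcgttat

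*Snrpa* has another listed promoter, and the one nearest to the annotated gene start is printed. The 6 promoters do not share a motif: *Snrpa* holds a pair of E-boxes and the CRE, *Hnrnpd* an E-box and an ETS-type site, *Sf3b3* an ETS-type site and a CCAAT box, and *Snrpf*, *Prpf8* and *Hnrnpa1* CCAAT boxes only. Promoter sequences matched 64 of the 75 genes, with 83 promoters. The E-box was found in 10 of these 83 (12.0%) and in 7.15% of all 32851 promoters in the table, and the CRE in 3 (3.61%) and 1.79%. The ETS-type site was found in 26 (31.3%) of the members' promoters and 8.86% of all, and the CCAAT box in 40 (48.2%) and 37.4%. These are matches of letters in a window and were not set against any measured binding.

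Some counts are uncertain because genes share sequence. *Snrpert* is a retrocopy of *Snrpe*, an Sm ring gene, and 55.7% of its 50-base windows also occur in transcripts of other genes, so a read from one of the pair can be counted on the other. Another 13 members have at least 25% of their 50-base windows in transcripts of other genes: *Snrpf*, *Snrpa*, *Sf3b4*, *Lsm5*, *Srsf2*, *Srsf3*, *Srsf4*, *Srsf5*, *Hnrnpa1*, *Hnrnpa3*, *Hnrnpab*, *Hnrnpf* and *Hnrnpk*. In *Snrpf*, 85.4% of the exon bases also lie under exons of *Ccdc38* or *4933408J17Rik*, so its count is uncertain as well.

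Most of the splicing genes changed over the day. The test of equal means at the 6 timepoints (edgeR's quasi-likelihood test, Benjamini–Hochberg adjusted p under 0.05 over 18941 genes) was passed by 64 of the 75 (85.3%), against 44.0% of all genes tested. Among the 11444 genes with at least 10 counts in every library, which are closer to the members in level, the share called was 68.0%, and 66 of the 73 members in that fit passed. By family, 8 of 11 SR genes, 16 of 17 hnRNP genes and 40 of 47 snRNP genes passed, the last made up of 11 of 12 *Snrp*, 13 of 13 *Lsm*, 7 of 9 SF3 and 9 of 13 *Prpf* genes. Those that did not pass included *Srsf4*, *Srsf11*, *Srsf12*, *Hnrnpa2b1*, *Snrpd3*, *Sf3a3*, *Sf3b2*, *Prpf4*, *Prpf4b* and *Prpf38b*. Of these, *Prpf4b* (adjusted p = 0.051), *Prpf38b* (0.061) and *Srsf11* (0.098) depended on the fit. All of them were called by DESeq2, with upper-quartile scaling, in the reads of the normalized table and after scaling for GC content and length. The reads of the normalized table gave 64 of 75 (45.0% of all genes) and DESeq2 68 (52.7%). Without ZT18 replicate C 69 genes passed (48.6% of all genes) and without ZT6 replicate C 59 (45.4%). Without both ZT6 and ZT10 the count fell to 37 of 75, 4 SR, 7 hnRNP and 26 snRNP genes, when 30.1% of the 18126 genes in that fit passed. With the replicate letter as a block the calls of *Hnrnpa3*, *Hnrnpr*, *Hnrnpul2* and *Lsm11* were lost, and each of them was also lost when single libraries were left out.

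**Figure D1:**
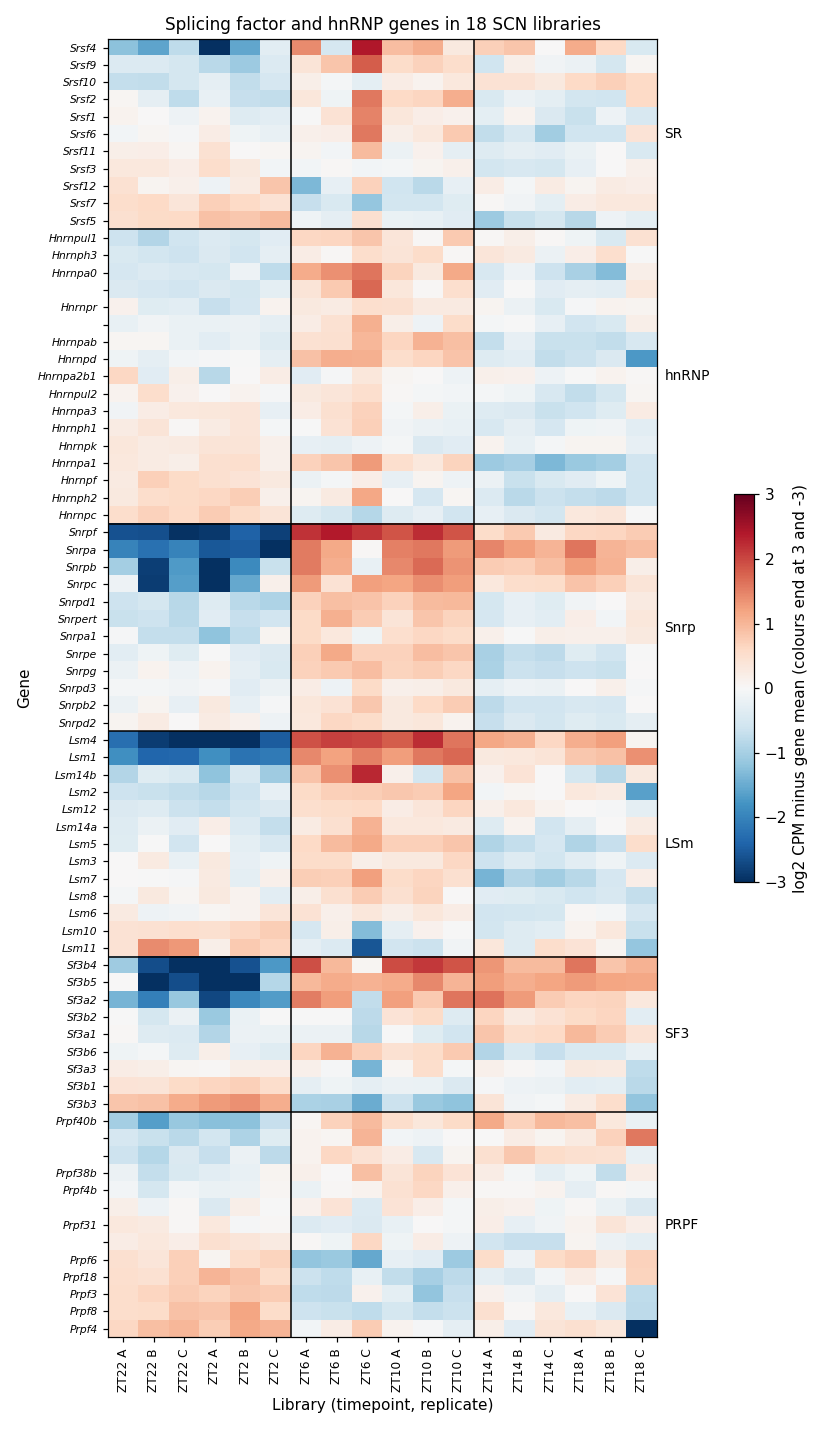
Heatmap of log2 CPM minus the gene's own mean for the 75 genes (rows, by family and within a family by their level at ZT22 and ZT2, labelled where the text names the gene) in 18 libraries (columns, by cluster of timepoints, black lines between clusters). Most rows change colour at the lines between clusters; *Snrpf*, *Snrpa*, *Snrpb*, *Snrpc*, *Lsm4*, *Lsm1*, *Sf3b4*, *Sf3b5* and *Sf3a2* are blue at ZT22 and ZT2, and *Sf3b3*, *Prpf8* and *Srsf5* are red there.

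The largest differences belonged to a set of mostly snRNP genes with little RNA at ZT22 and ZT2. In 10 of the 75 genes, *Snrpf*, *Snrpa*, *Snrpb*, *Snrpc*, *Lsm4*, *Lsm1*, *Sf3b4*, *Sf3b5*, *Sf3a2* and *Srsf4*, the mean log2 level at these 2 timepoints was more than 4-fold below that of the other 4, as it was in 4.85% of all genes tested. No member was more than 4-fold higher there (2.38% of all genes). *Snrpf*, a protein of the Sm ring, was counted at 2.36, 2.31 and 1.83 CPM at ZT22 and 1.92, 2.67 and 2.04 CPM at ZT2, against 54.6, 69.3 and 55.1 at ZT10 and 66.6, 76.5 and 65.4 at ZT6, and 22.8, 23.2 and 25.1 at ZT18 and 21.7, 25.6 and 17.7 at ZT14. No library of the ZT22 and ZT2 cluster overlapped any other, and those of ZT6 and ZT10 lay above all the rest, with a 32.1-fold range between ZT6 and ZT22 and an adjusted p of 4.3e-11. *Lsm4*, a subunit of the LSm rings of U6 and of the mRNA decay complex, had 4.38, 2.87 and 2.40 CPM at ZT22 and 2.60, 2.32 and 3.70 CPM at ZT2, against 75, 99.0 and 64.2 at ZT10 and 80.2, 88.2 and 84.9 at ZT6, and 44.9, 49.4 and 22.4 at ZT18 and 47.3, 44.6 and 32.7 at ZT14. Its 3 clusters came in the same order as those of *Snrpf*, with a 29.4-fold range (adjusted p = 4.8e-09). *Lsm4* shares no 50-base window with another gene, and none of its exon bases lie under another gene's exons.

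*Snrpa* encodes the U1 protein that binds a stem-loop of the U1 RNA. It had 10.3, 8.71 and 10.3 CPM at ZT22 and 6.96, 7.27 and 4.82 CPM at ZT2, and 118, 123 and 100 at ZT10, 121, 91.0 and 42.2 at ZT6, 126, 83.3 and 77.9 at ZT18 and 114, 96.2 and 84.0 at ZT14 (adjusted p = 4e-08). Here the 4 other timepoints were alike in level, and only ZT6 replicate C lay apart at 42.2 CPM. *Lsm1*, the subunit that directs the LSm ring to cytoplasmic mRNA decay, averaged 5.83 ± 1.36 CPM at ZT22 and 6.31 ± 0.869 CPM at ZT2 and was highest at ZT10 with 76.7 ± 12.2 CPM (adjusted p = 1.2e-09). *Prpf40b*, a U1-associated protein, fell less far, to 12.4 ± 2.67 CPM at ZT22 from 56.7 ± 8.65 CPM at ZT14 (adjusted p = 2.9e-05). *Srsf4*, the SR gene of the set, did not pass the test (adjusted p = 0.052 by edgeR, though DESeq2 called it) at 0.389 ± 0.384 CPM at ZT2 and 3.13 ± 2.54 CPM at ZT6, and its counts were low, from 1 to 122 reads. In all, 13 of the 75 genes had every ZT22 and ZT2 library below every other library, 12 of them snRNP genes and the other *Hnrnph3*, against 7.93% of all genes. The count was 14 in the reads of the normalized table (7.14% of all genes) and 17 after scaling for GC content and length (6.93%), but 10 with upper-quartile scaling (6.88%), where *Hnrnph3*, *Lsm12* and *Snrpc* overlapped.

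**Figure D2:**
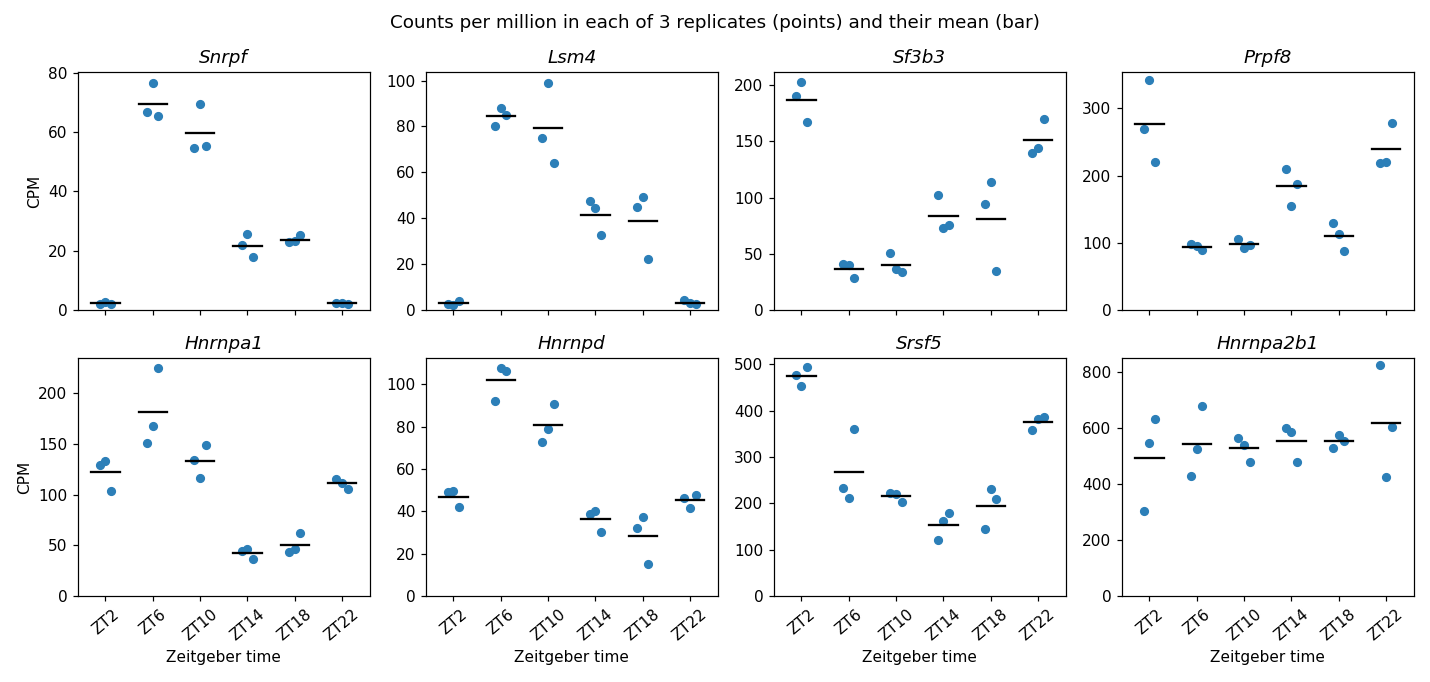
CPM of 8 genes at the 6 timepoints, each point a replicate and each bar the mean of 3, with every axis starting at 0. *Snrpf* and *Lsm4* are near 0 at ZT2 and ZT22, *Sf3b3*, *Prpf8* and *Srsf5* are highest there, *Hnrnpa1* and *Hnrnpd* are lowest at ZT14 and ZT18, and *Hnrnpa2b1* shows no such order.

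Other members ran the opposite way. Every ZT22 and ZT2 library lay above every other library in 9 of the 75 genes (4.21% of all genes): *Sf3b1*, *Sf3b3*, *Prpf3*, *Prpf8*, *Lsm10*, *Srsf7*, *Hnrnpc*, *Hnrnpf* and *Hnrnpk*. Summed astrocyte markers had their highest means in these libraries (2792 to 3923 CPM, against 1268 to 2869 CPM elsewhere), as did microglial markers (179 to 233 CPM against 84.2 to 201 CPM), and their part in the genes low or high at ZT22 and ZT2 was not tested. *Sf3b3*, a scaffold of the SF3B complex of U2, had 139, 144 and 169.9 CPM at ZT22 and 191, 203 and 168 CPM at ZT2, against 93.8, 114 and 34.5 at ZT18, 103, 72.8 and 75.5 at ZT14, 50.6, 36 and 33.7 at ZT10 and 40.5, 40.1 and 28.1 at ZT6. The other 2 clusters overlapped, since ZT18 replicate C, at 34.5 CPM, was as low as the ZT6 and ZT10 libraries (adjusted p = 2.3e-05, 5.16-fold from ZT2 to ZT6). *Prpf8*, the protein at the catalytic centre of the spliceosome, had 219, 219 and 278 CPM at ZT22 and 269.9, 342 and 220.4 CPM at ZT2, 210.1, 155 and 188 at ZT14, 129.6, 112 and 87.6 at ZT18, 98.5, 94.9 and 89.4 at ZT6 and 105, 91.5 and 96.0 at ZT10 (adjusted p = 3e-06). Its ZT18 libraries were nearer to those of ZT6 and ZT10 than to ZT14. *Prpf18*, which acts in the second step of splicing, averaged 121 ± 19 CPM at ZT2 and 38.3 ± 3.49 CPM at ZT10 (adjusted p = 1.5e-05), and *Sf3b1*, which holds the branch point, 303 ± 20.1 CPM at ZT2 and 142 ± 27.2 CPM at ZT18 (adjusted p = 3.8e-05). After scaling for GC content and length only *Sf3b3*, *Prpf8* and *Lsm10* kept separate libraries, 3 of 75 (3.48% of all genes).

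Another group was highest in the light phase at ZT6 and ZT10. In 15 of the 75 genes all 6 of these libraries lay above the other 12 (4.78% of all genes): *Snrpd1*, *Snrpe*, *Snrpert*, *Snrpf*, *Snrpg*, *Lsm2*, *Lsm4*, *Lsm5*, *Lsm7*, *Sf3b6*, *Srsf9*, *Hnrnpa0*, *Hnrnpab*, *Hnrnpd* and *Hnrnpr*. The reads of the normalized table gave 16 (4.48%), without *Snrpert*, *Snrpg*, *Lsm7* and *Sf3b6* and with *Snrpb2*, *Lsm3*, *Lsm12*, *Lsm14a* and *Srsf1*. Scaling for GC content and length gave 19 (5.31%). *Hnrnpd*, also called AUF1, binds AU-rich elements and destabilises the mRNAs that hold them. It had 92.4, 108 and 106 CPM at ZT6 and 72.9, 79.0 and 90.9 CPM at ZT10, against 38.9, 40.4 and 30.3 at ZT14, 32.3, 37.4 and 15.2 at ZT18, 46.3, 41.6 and 47.8 at ZT22 and 49.0, 49.8 and 41.9 at ZT2. The 3 clusters did not overlap in this gene, in the order ZT6 and ZT10, ZT22 and ZT2, ZT14 and ZT18 (adjusted p = 4e-05). The summed SCN neuron markers were highest in the same libraries, at 3737 to 4775 CPM against 1162 to 2984 CPM elsewhere, and their part in this group was not tested. Of all 75 genes, *Prpf6* and *Srsf7* had every ZT6 and ZT10 library below the rest, 2 genes (3.74% of all), but neither did under upper-quartile scaling (0 of 75, against 3.03% of all). At ZT14 and ZT18 the libraries were all lower in *Hnrnpa1*, *Hnrnpd*, *Lsm8* and *Snrpd2* (1.10% of all genes) and all higher in *Sf3a1* (2.51%). With reads recovered from normalized values, 8 genes had all of these libraries lower (1.04% of all genes), the same 4 with *Hnrnpf*, *Hnrnph1*, *Hnrnph2* and *Srsf5*. After scaling for GC content and length only *Hnrnpa1* and *Hnrnph2* did, 2 of 75 (1.33% of all genes). There the libraries of *Hnrnpd*, *Lsm8* and *Snrpd2* overlapped. Oligodendrocyte markers were highest in these libraries (4716 to 6071 CPM, against 1267 to 4409 CPM elsewhere), and their part was not tested either.

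Among the SR genes, levels per length (RPKM, reads per 1000 bases of exon, scaled to library size as CPM is) were highest for *Srsf5* (70.3 on average) and *Srsf7* (68.3) and lowest for *Srsf4* (0.418). *Srsf5*, which binds purine-rich exonic enhancers, had 358, 383 and 386 CPM at ZT22 and 476, 454 and 494 at ZT2, 223, 219.7 and 204 at ZT10 and 234, 212 and 359.7 at ZT6, and 144, 232 and 210.1 at ZT18 and 119.9, 161 and 179 at ZT14 (adjusted p = 3.3e-05). It was highest at ZT2 and lowest at ZT14, with ZT6 replicate C reaching the level of ZT22. *Srsf7*, which also carries a zinc knuckle, was likewise highest at ZT2 with 343 ± 33.0 CPM but lowest at ZT6 with 137 ± 32.0 CPM (adjusted p = 1.5e-05). *Srsf10*, known as a splicing repressor when dephosphorylated, ran differently from both, from 50.5 ± 4.24 CPM at ZT22 to 124 ± 5.30 CPM at ZT18 (adjusted p = 1.9e-05). *Srsf1*, *Srsf2*, *Srsf6* and *Srsf9* had their highest means at ZT6 or ZT10 (adjusted p between 0.00042 and 0.019), and in all 4 the highest ZT6 library was replicate C: *Srsf1* had 66.6, 90.5 and 188 CPM there, and its call was lost without that library (adjusted p = 0.075). The call of *Srsf6* was lost without ZT14 replicate C (adjusted p = 0.055). *Srsf3* was lowest at ZT14 (147 ± 3.98 CPM) and highest at ZT22 (255 ± 10.8 CPM, adjusted p = 0.0045). *Srsf12* did not pass, with 56.0 ± 19.7 CPM at ZT2 and 30.0 ± 5.93 CPM at ZT10 (adjusted p = 0.32, and 0.03 without ZT6 replicate C).

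The 17 hnRNP genes in the counts ranged from 1.25-fold to 4.27-fold between the highest and the lowest timepoint. The widest snRNP ranges were larger (32.1-fold in *Snrpf*), but others were as small (1.36-fold in *Snrpd3*). *Hnrnpm*, which is absent from the counts, went from 15.9 CPM at ZT2 to 170 CPM at ZT14 in the reads of the normalized table. *Hnrnpa1*, which represses exons and competes with SR proteins, had 151, 167 and 225 CPM at ZT6, 134, 116 and 149 at ZT10, 116, 112 and 106 at ZT22 and 129, 133 and 103 at ZT2, against 44.0, 46.9 and 36.5 at ZT14 and 43.2, 46.0 and 62.6 at ZT18. All ZT14 and ZT18 libraries lay below the others (adjusted p = 7e-07). Its close relative *Hnrnpa2b1* had the highest mean of the hnRNP genes per length (83.4 RPKM) and showed no call (adjusted p = 0.9): its replicates spread from 304 to 632 CPM within ZT2 alone, wider than the timepoint means of 494 to 618 CPM. *Hnrnpa0* fell from 317 ± 54.7 CPM at ZT6 to 82.8 ± 47.4 CPM at ZT18 (adjusted p = 4.9e-05), and *Hnrnpab* from 101 ± 13.7 CPM at ZT10 to 35.2 ± 3.32 CPM at ZT18 (adjusted p = 7.8e-06). *Hnrnpc*, which binds uridine tracts and packages nascent transcripts, had 469.9, 525 and 489 CPM at ZT22, 548, 483 and 426 at ZT2, 402, 419 and 323 at ZT18, 273, 242 and 223 at ZT14, 248, 274 and 217 at ZT10 and 249, 224 and 179.6 at ZT6 (adjusted p = 1.2e-05). *Hnrnpc* thus followed the ZT22 and ZT2 pattern of *Sf3b3* and not that of *Hnrnpa1*. *Hnrnpk*, a poly(C)-binding protein, was called at 528 ± 45.4 CPM at ZT2 and 351 ± 48.1 CPM at ZT10 (adjusted p = 0.0091), but not in the reads of the normalized table (adjusted p = 0.081) or after scaling for GC content and length.

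Genes whose proteins sit in one complex did not share one profile. The Sm ring holds 1 copy of each of 7 proteins. The difference in mean log2 level between ZT22 with ZT2 and the other timepoints was -4.08 for *Snrpf*, -2.95 for *Snrpb*, -1.03 for *Snrpd1*, -0.39 for *Snrpe*, -0.21 for *Snrpg*, -0.19 for *Snrpd3* and 0.13 for *Snrpd2*. The first 2 of these were far below the rest. In the reads of the second deposited table described near the end, the sign turned for *Snrpg* (0.76) and *Snrpd3* (0.11) and not for the other 5. *Snrpe*, the member of the *Snrp* genes with the highest level per length (94.5 RPKM), fell from 213 ± 38.73 CPM at ZT6 to 66.3 ± 6.29 CPM at ZT14 (adjusted p = 1.8e-06). *Snrpd1* ranged between 75.6 ± 15.6 CPM at ZT2 and 225 ± 24.1 CPM at ZT10 (adjusted p = 6.6e-07), whereas *Snrpd3* did not pass, with means between 118 and 161 CPM (adjusted p = 0.098; 0.022 without ZT6 replicate B, 0.032 by DESeq2 and 0.0039 after scaling for GC content and length, but 0.23 in the reads of the second table). The U1-specific genes *Snrpa* (-3.59), *Snrpc* (-2.52) and *Snrnp70* (-1.42) had negative values of this difference, and the U2-specific genes *Snrpa1* (-0.83) and *Snrpb2* (-0.09) smaller ones.

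The SF3 complexes bring U2 to the branch point. Within SF3B the same difference ran from -3.91 for *Sf3b4* and -3.47 for *Sf3b5* through -0.51 for *Sf3b2* and -0.25 for *Sf3b6* to 0.82 for *Sf3b1* and 1.64 for *Sf3b3*. *Sf3b4* had 0.961, 3.18 and 6.01 CPM at ZT2 and 9.53, 3.09 and 1.90 at ZT22, against 78.2, 87.1 and 73.3 at ZT10 (adjusted p = 4.5e-05). *Sf3b5* varied between replicates at the low timepoints, with 3.62, 6.28 and 28.6 CPM at ZT2 and 52.6, 4.59 and 8.14 at ZT22, and was even elsewhere, from 102 to 141 CPM (adjusted p = 0.0038, and DESeq2 gave it no adjusted p). As in *Snrpb*, *Snrpc* and *Sf3b4*, but not in *Snrpa* or *Snrpf*, replicate C was the highest at ZT2 and replicate A at ZT22. *Sf3b6*, which touches the branch-point adenosine, had the highest level per length of the SF3 genes (83.9 RPKM), with 389 ± 58.9 CPM at ZT6 and 139.7 ± 20.3 CPM at ZT14 (adjusted p = 1.2e-05). In SF3A, *Sf3a2* was low at ZT2 (1.86 ± 0.663 CPM) and highest at ZT14 (19.3 ± 5.61 CPM, adjusted p = 7.2e-05), *Sf3a1* was highest at ZT18 (122 ± 22.4 CPM, adjusted p = 0.00045), and *Sf3a3* did not pass (50.1 ± 23.6 CPM at ZT6 and 69.9 ± 15.4 CPM at ZT10, adjusted p = 0.75).

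**Figure D3:**
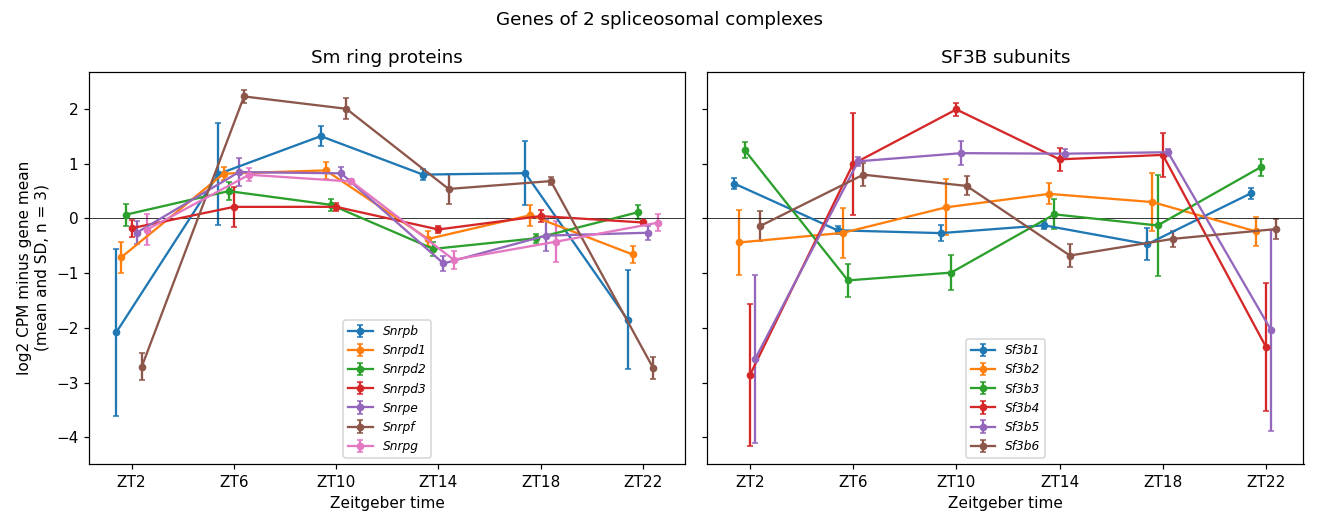
Mean log2 CPM minus the gene's own mean (SD over 3 replicates) at each timepoint for the 7 Sm ring genes and the 6 SF3B genes. *Snrpf* and *Snrpb* drop at ZT2 and ZT22 to means of -1.85 or lower, while the next lowest Sm mean is -0.82 (*Snrpe* at ZT14), and *Sf3b4* and *Sf3b5* drop where *Sf3b1* and *Sf3b3* are highest.

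In the LSm family all 13 genes passed. *Lsm12*, highest per length at 63.2 RPKM, averaged 211 ± 7.46 CPM at ZT6 and 97.4 ± 8.93 CPM at ZT2 (adjusted p = 2.5e-05). *Lsm2*, *Lsm3*, *Lsm5*, *Lsm6*, *Lsm7* and *Lsm8*, the partners of *Lsm4* in the ring on U6, had differences of -0.92 (*Lsm2*) to 0.13 (*Lsm6*) on the log2 scale, against -4.21 for *Lsm4*, and had their highest means at ZT6 or ZT10. *Lsm10* and *Lsm11*, which replace 2 Sm proteins in the U7 snRNP of histone mRNA processing, had positive differences of 0.81 and 1.19. The call of *Lsm11* was weak: with 24 ± 7.88 CPM at ZT22 and 6.43 ± 4.03 CPM at ZT6 its adjusted p was 0.036, and it missed the threshold without any 1 of ZT2 replicate B, ZT10 replicate A, ZT10 replicate B, ZT14 replicate A, ZT22 replicate B or ZT22 replicate C, with an adjusted p up to 0.12, as well as in the reads of the normalized table (0.07), with a replicate block (0.059) and after scaling for GC content and length (0.086). The call of *Lsm10* was lost in the reads of the normalized table and without ZT2 replicate B (adjusted p = 0.0502 in both), that of *Lsm14a* without ZT6 replicate C (adjusted p = 0.079) and that of *Lsm2* without ZT10 replicate C (adjusted p = 0.066) or without a filter on low counts (adjusted p = 0.054). *Lsm14b*, a translational repressor of RNP granules, was highest at ZT6 with 62.7 ± 31.7 CPM (adjusted p = 0.00033).

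Among the *Prpf* genes, *Prpf6*, a bridge of the U4/U6.U5 tri-snRNP, had the highest level per length (22.5 RPKM). It had 34.3, 36.1 and 26.6 CPM at ZT6 and 65.2, 61.3 and 36.7 at ZT10, against 115, 70.1 and 115 at ZT14, 126, 94.4 and 125 at ZT18, 109, 100.1 and 127 at ZT22 and 82.0, 113 and 123 at ZT2 (adjusted p = 5.9e-05). *Prpf8* shares the U5 snRNP with the products of *Snrnp200* and *Eftud2*, which were also lowest in the ZT6 and ZT10 cluster: *Snrnp200* at 69.7 ± 9.86 CPM at ZT10 against 275 ± 52.5 CPM at ZT2 (adjusted p = 2.7e-06), and *Eftud2* at 38.0 ± 3.72 CPM at ZT10 against 126 ± 17.8 CPM at ZT14 (adjusted p = 1.3e-05). Another U5 protein, *Snrnp40*, had its lowest mean at ZT22 (11.4 ± 1.47 CPM) and its highest at ZT10 (46.4 ± 8.29 CPM, adjusted p = 8.7e-05). *Prpf4*, a U4/U6 protein, missed the threshold (adjusted p = 0.63). It had 39.5, 35.8 and 0.122 CPM in replicates A, B and C of ZT18, and without ZT18 replicate C it was called (adjusted p = 0.0061).

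The families were also compared by their medians. Each gene's log2 CPM was set relative to its own mean over 18 libraries, and the median over the genes of a family was taken in each library. For the snRNP genes this median was, in order from ZT2 to ZT22, -0.16 ± 0.12, 0.45 ± 0.13, 0.44 ± 0.07, 0.01 ± 0.12, 0.09 ± 0.07 and -0.20 ± 0.13 (mean ± SD over n = 3). The ZT6 and ZT10 values lay above the rest by more than the SD, and those of ZT22 and ZT2 were lowest. For the hnRNP genes it was -0.03 ± 0.05, 0.46 ± 0.24, 0.09 ± 0.07, -0.32 ± 0.14, -0.24 ± 0.20 and 0.07 ± 0.03 at the same timepoints in order. The hnRNP median was lowest at ZT14 and ZT18 and the snRNP median at ZT22 and ZT2, but with upper-quartile scaling the snRNP median at ZT14 (-0.12) was as low as at ZT22 (-0.13), and without genes that have near-identical copies the hnRNP median at ZT2 (-0.19) was as low as at ZT18 (-0.18). For the SR genes it was -0.08 ± 0.17, 0.32 ± 0.56, 0.16 ± 0.02, -0.25 ± 0.14, -0.02 ± 0.18 and 0.05 ± 0.07, and the ZT6 value ranged between -0.09 and 0.96 over its replicates. Without ZT6 replicate C it was 0.0545, below the SR median at ZT10 (0.20). Over all 18941 genes the median lay between -0.13 (ZT6) and 0.15 (ZT14). Within the snRNP group the *Snrp* genes had the widest course, from -0.53 ± 0.27 at ZT22 to 0.79 ± 0.11 at ZT10, and the *Prpf* genes the narrowest, from -0.05 ± 0.02 at ZT10 to 0.18 ± 0.12 at ZT22. Members of a family differed widely: at ZT2 the snRNP genes ran from -2.88 (*Lsm4*) to 1.25 (*Sf3b3*), with an SD over genes of 1.09, against 0.36 for the hnRNP genes and 0.82 for all genes.

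**Figure D4:**
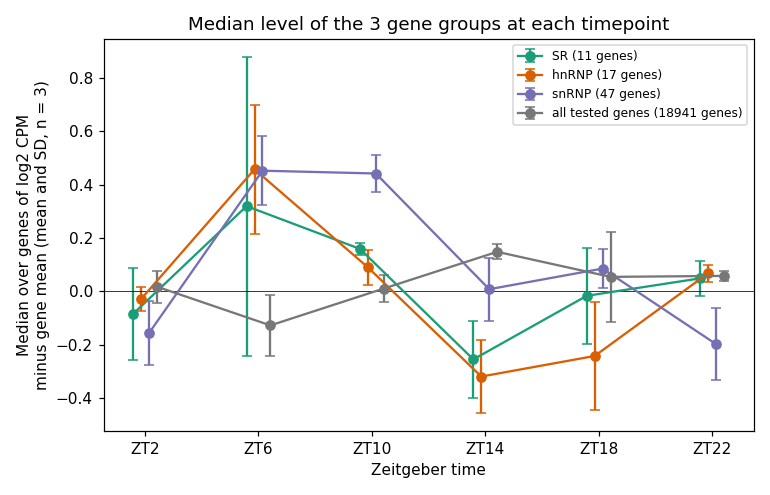
Median over genes of log2 CPM minus the gene's own mean at each timepoint, for SR, hnRNP and snRNP genes and for all tested genes (points are the mean of 3 replicate medians, bars the SD). The hnRNP median is highest at ZT6, the snRNP median at ZT6 and ZT10, and the SR median at ZT6 (at ZT10 instead without ZT6 replicate C), while the median of all genes is lowest at ZT6, and the hnRNP and SR medians are lowest at ZT14 (for SR genes ZT2 instead with GC and length offsets).

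Cycling genes are those that passed the test over timepoints as well as JTK_CYCLE, which looks for a 24 h cosine-like order of the libraries. Of the 75 genes 53 (70.7%) were called cycling, against 29.9% of all genes tested: 6 SR, 13 hnRNP and 34 snRNP genes. The share over genes nearer to the members in level was not computed. The test over timepoints, which the call needs, passed 44.0% of all genes and 68.0% of those with at least 10 counts in every library. Of the 53 cycling members, 16 peaked at ZT10, 14 at ZT6, 8 at ZT2, 7 at ZT22, 6 at ZT14 and 2 at ZT18. ZT6 and ZT10 together held 30 of the 53 peaks (56.6%), and 34.7% of the peaks of all 5670 cycling genes. Genes with strong changes need not fit such a course: *Prpf8*, *Sf3b1* and *Snrpe* passed the test over timepoints but had JTK_CYCLE p-values of 0.091, 0.11 and 0.055 (exact null distribution, corrected for 6 lags). *Hnrnpd* had the smallest of the named genes (2.9e-06, peak at ZT6), and *Srsf5* followed (6.4e-06, peak at ZT2). The reads of the normalized table gave 56 cycling members (30.5% of all genes), 36 of them with a peak at ZT6 or ZT10 (64.3%, against 33.7% of all cycling genes). Scaling for GC content and length gave 53 (27.3% of all genes) with 40 such peaks (75.5%, against 44.0%).

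Within the clusters of libraries no member passed the test by edgeR. None of the 75 genes differed between ZT14 and ZT18 (edgeR's quasi-likelihood test, adjusted p under 0.05; 0.570% of all genes did), although 14 had an unadjusted p under 0.05 (13.5% of all genes). DESeq2 called 5 of them here (4.46% of all genes): *Hnrnpc*, *Lsm1*, *Lsm7* and *Srsf3* lower and *Prpf8* higher at ZT14. The smallest p-values by edgeR were those of *Prpf8*, with a difference of ZT14 over ZT18 of 0.75 ± 0.19 (log2, SE), with an unadjusted p of 0.00086 and an adjusted p of 0.077, and *Hnrnpc* with -0.63 ± 0.16 (log2, SE), with an unadjusted p of 0.0012 and an adjusted p of 0.084. In edgeR *Hnrnpc* passed when ZT6 replicate C was left out, and *Hnrnpc* and *Prpf8* passed among genes with at least 10 counts in every library, as 2.14% of those genes did. Between ZT22 and ZT2 no member was called (0.0317% of all genes), none had an unadjusted p under 0.05 (3.59% of all genes), and DESeq2 called 0. The lowest p-values there belonged to *Snrpa*, with a ZT22 over ZT2 difference of 0.62 ± 0.30 (log2, SE), with an unadjusted p of 0.054 and an adjusted p of 1, and *Srsf5*, with -0.34 ± 0.21 (log2, SE), with an unadjusted p of 0.12 and an adjusted p of 1. Between ZT6 and ZT10 none was called (0.0475% of all genes), 9 had an unadjusted p under 0.05 (10.8%), 6 of them hnRNP genes, and DESeq2 again called 0. Here *Lsm14b* had a ZT6 over ZT10 difference of 1.33 ± 0.40 (log2, SE), with an unadjusted p of 0.0036 and an adjusted p of 0.32, and *Prpf6* one of -0.75 ± 0.24 (log2, SE), with an unadjusted p of 0.0069 and an adjusted p of 0.35. The joint test of the 3 comparisons called none (0.116% of all genes), with 10 members at an unadjusted p under 0.05 (11.7%). With shares this low over all genes, 0 calls of 75 say nothing particular about the splicing genes. Between clusters, time and any sequencing batch that follows them cannot be told apart.

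The second deposited table, from which whole reads could be recovered, changed the picture for a few genes. At ZT2, ZT14, ZT18 and ZT22 the members' reads there, summed over replicates, were 0.938 to 1.006 times the counts in every gene, and at ZT6 and ZT10 the median ratio was 0.915 and 0.911. In 6 of the 75 genes the ratio was under 0.8 at both: *Snrpg*, *Snrpd3*, *Hnrnpul1*, *Lsm7*, *Sf3b6* and *Snrpert*. *Snrpg*, an Sm ring protein, kept only 2018 of 8107 reads at ZT6 and 1441 of 7402 at ZT10. In the counts it was therefore highest at ZT6 (124 ± 10.2 CPM) and in the recovered reads at ZT22 (64.5 ± 7.06 CPM), where ZT10 became its lowest timepoint (24.9 ± 2.09 CPM); both differences over time were called (adjusted p = 1.6e-05 and 0.00037). *Snrpd3* kept 6005 of 10500 at ZT6, and its log2 difference between ZT6 and ZT14 went from 0.44 to -0.14. *Hnrnpul1* had its highest mean at ZT6 in the counts (75.1 ± 6.03 CPM, adjusted p = 0.0005) and at ZT14 in the recovered reads (46.4 ± 2.94 CPM, adjusted p = 0.04). *Lsm7* and *Sf3b6* kept ZT6 as their highest timepoint. *Snrpf* and *Snrpe*, in contrast, had slightly higher levels at ZT6 in the recovered reads, 73.6 ± 5.62 CPM and 225 ± 42.2 CPM.

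**Figure D5:**
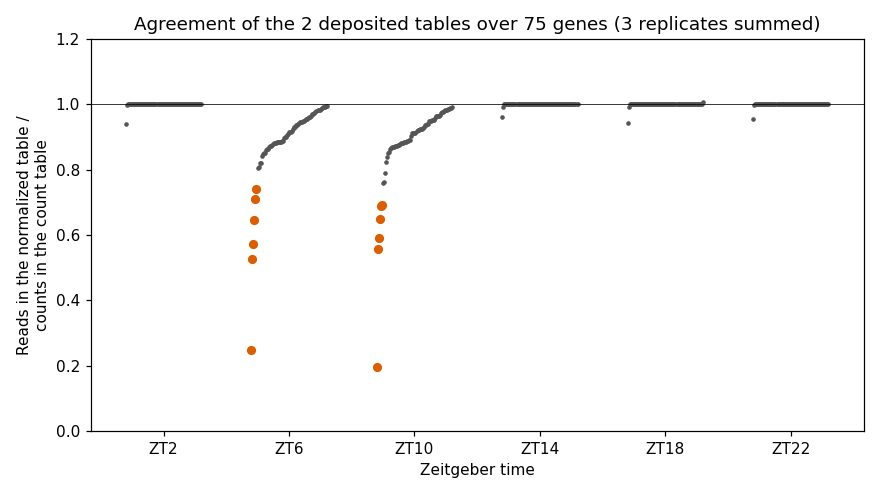
Ratio of the reads recovered from the normalized table to the counts, summed over 3 replicates, for each of the 75 genes (points, in rising order within each timepoint). The ratio is close to 1 at ZT2, ZT14, ZT18 and ZT22, and at ZT6 and ZT10 the genes spread below it with medians of 0.915 and 0.911. The 6 genes below 0.8 at both are orange, *Snrpg* lowest at 0.249 and 0.195.

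Base composition and length of the transcripts went with the differences between clusters. Over the 75 genes the difference of ZT22 and ZT2 from the other timepoints had a Spearman correlation of -0.21 with GC content and 0.30 with exon length, and over all genes with both values (-0.31 and 0.19) it was similar in sign. The difference of ZT6 and ZT10 had one of -0.52 with exon length over the members, against -0.18 over all genes, so that shorter members tended to be higher at ZT6 and ZT10. These are descriptions across genes, which share libraries and are not replicates. The 10 genes low at ZT22 and ZT2 had a median GC content of 51.2%, from 41.3% (*Snrpf*) to 62.2% (*Sf3a2*), against 45.8% for all 75. With offsets for GC content and length 66 of the 75 genes passed the test over timepoints (40.5% of all genes), and *Hnrnpk*, *Lsm11* and *Prpf31* lost their call.

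Other genes of the splicing pathway also changed. Of a list of 85 further splicing factors and regulators 83 were tested, and 57 (68.7%) changed over the timepoints. This share was 44.0% over all genes, but 68.0% over the 11444 genes with at least 10 counts in every library. Of the 83, 40 (48.2%) were called cycling, against 29.9% of all genes, and this share was not computed over genes with at least 10 counts. As among the members, some were lowest at ZT22 or ZT2 and others highest: *Celf4*, a neuronal splicing regulator, had 151 ± 64.7 CPM at ZT2 and 886 ± 84.0 CPM at ZT10 (adjusted p = 1.6e-07), and *Slu7*, a second-step factor, 187 ± 22.2 CPM at ZT22 and 55.1 ± 9.68 CPM at ZT6 (adjusted p = 2e-06). *Rbfox1* and *Rbfox3*, neuronal regulators of alternative exons, differed between ZT14 and ZT18 (edgeR, adjusted p = 0.024 for both), 2 of the 83 (0.570% of all genes). At ZT14, ZT18 and ZT22 *Rbfox1* averaged 240, 60.6 and 184 CPM, and *Rbfox3* 76.3, 25.2 and 29.0 CPM. The telencephalic marker *Slc17a7* had 61.0, 15.5 and 51.9 CPM at these timepoints, and the part of such cells was not tested. The kinases that phosphorylate SR proteins were mostly not called: of *Clk1* to *Clk4*, *Srpk1* to *Srpk3* and *Prpf4b*, 2 of 8 passed. These were *Srpk1*, with 168 ± 13.5 CPM at ZT22 and 70.2 ± 7.86 CPM at ZT6 (adjusted p = 8.7e-06), and *Clk3*, with 47.5 ± 17.6 CPM at ZT18 and 16.1 ± 9.01 CPM at ZT6 (adjusted p = 0.018). *Prpf4b* narrowly missed the threshold (adjusted p = 0.051 by edgeR) and was called by DESeq2.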

How the data were processed

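RNA from laser-captured SCN was measured in 54 lane samples, 3 lanes for each of 18 biological replicates (6 timepoints, 3 replicates, each a pool of 5 mice), and lanes were combined by the authors. The authors aligned reads with GSNAP to mm10 and counted them with HTSeq 0.5.4p1. They deposited raw counts per Ensembl gene for 30031 genes, and a second table of normalized signal for 31077 genes, the counts divided by a size factor for each library. Whole reads were recovered from that signal by dividing each column by its smallest step, and 100% of its values came out whole to within 0.01. No sample column was left unused (0 columns). In ZT2, ZT14, ZT18 and ZT22 libraries the 2 tables held equal reads for 93.3% to 94.9% of the 26118 genes they share, but in ZT6 and ZT10 libraries for 8.76% to 12.2%.

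The 18941 genes that had a read in more than 6 libraries were tested with edgeR 4.0.16 in R 4.3.3 (TMM scaling, quasi-likelihood F-tests, 1 fit to 18 libraries, Benjamini–Hochberg adjustment over all genes, threshold 0.05), for equal means at 6 timepoints, for the 2 timepoints within each cluster, and for these 3 comparisons jointly. JTK_CYCLE was rewritten in Python 3.11.15 with an exact null distribution, a 24 h period and 6 lags. Log2 CPM used a prior count of 2. Fitted differences are log2 fold changes with SE, and the test compares replicates labelled as separate pools of mice. Depth was 15412981 to 35820945 counts per library. The tests were checked on simulated data. Positions, lengths and GC content came from GENCODE M21 gene models (GRCm38), where 97.2% of identifiers had a symbol, and RPKM used the union of a gene's exons. Alternatives were DESeq2 1.42.0, its size factors, upper-quartile scaling, 2 other filters, recovered reads, a replicate block, each library left out, a prior count of 0.5, a cosinor fit with limma 3.58.1 and members with near-identical copies left out. Offsets for GC content and length, and a fit without ZT6 and ZT10, were added after seeing the data. The members and lists were chosen with earlier results of these data known. In each of the SR, hnRNP, *Snrp*, *Lsm*, SF3 and *Prpf* groups the genes named are the 3 with the smallest p over timepoints, the 1 with the largest and the 1 with the highest RPKM, plus those with the smallest p in each direction within each cluster; other members, and *Celf4* and *Slu7*, are named where they complete a complex or a pattern, after their values were seen. One gene under this rule is not reported here.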

Additional observations from a re-analysis of the deposited data

Results flagged for a closer look

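Among normalized values, 4 further symbols fit the choice of genes but have no row among the counts, so no comparison above used them: *Hnrnpm* (47291 recovered reads over 18 libraries), *Hnrnpdl* (44904), *Hnrnpll* (12266) and *Lsmem1* (249), the last a membrane protein gene outside the splicing machinery. They are listed because each has reads above the limit of 3 that a count of 0 allows. *Hnrnpm*, an hnRNP that binds GU-rich introns, had 18.2 ± 4.08 at ZT22, 15.9 ± 1.80 at ZT2, 103 ± 8.31 at ZT10, 84.8 ± 4.30 at ZT6, 163 ± 49.2 at ZT18 and 170.1 ± 33.1 at ZT14 (CPM of recovered reads, mean ± SD, n = 3; adjusted p = 3e-09 by edgeR). It had the ZT22 and ZT2 low of *Snrpf* and *Lsm4*, and 28.8% of its 50-base windows occur in other genes. *Hnrnpdl*, a paralog of *Hnrnpd*, had 53.5 ± 7.61 at ZT22, 59.3 ± 6.22 at ZT2, 187 ± 26.8 at ZT10, 188 ± 10.4 at ZT6, 76.0 ± 21.3 at ZT18 and 73.2 ± 5.58 at ZT14 (adjusted p = 2.2e-07), highest in the ZT6 and ZT10 cluster as *Hnrnpd* was. *Hnrnpll* had 21.7 ± 4.66 at ZT22, 19.9 ± 1.92 at ZT2, 39.8 ± 4.14 at ZT10, 59.7 ± 24 at ZT6, 14.6 ± 4.61 at ZT18 and 18.1 ± 4.86 at ZT14 (adjusted p = 7.1e-05). *Lsmem1* did not exceed a mean of 1.15 CPM (adjusted p = 0.85). ZT6 and ZT10 values of this table differ from the counts for many genes.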

How the results depend on the processing

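The count of members changing over timepoints was 58 to 69 when each library was left out and 60 to 68 under the other planned fits to all members (51 of 61 without members that have near-identical copies), and fell to 37 without ZT6 and ZT10; 49 members were called in all 26 fits to 6 timepoints (*Sf3b5*, with no adjusted p in DESeq2, is not among them). The cycling count was 46 to 60 when each library was left out and 50 with a cosinor fit. The zero for ZT14 against ZT18 became 5 in DESeq2 and 2 with at least 10 counts in every library, and was 0 to 1 when each library was left out. The replicate letter as a replicate block gave 60 members over time and 51 cycling; letters did not pair the samples, since 0 of 45 same-letter pairs had correlated deviations above 0.1 (r of -0.13 to 0.07) and 8 of 18 libraries correlated best with their own letter. The log2 difference of *Snrpd3* between ZT6 and ZT14 reversed to -0.14 in the recovered reads. Family medians moved by more than the SD as follows: with DESeq2's size factors hnRNP at ZT2 0.0225; with upper-quartile scaling hnRNP at ZT2 0.0576, hnRNP at ZT22 0.13, snRNP at ZT14 -0.12, snRNP at ZT18 0.001; with the filter of 10 counts SR at ZT10 0.10; with the recovered reads SR at ZT10 0.29, SR at ZT22 -0.02, hnRNP at ZT10 0.16, hnRNP at ZT22 0.0161, snRNP at ZT10 0.35; with the GC and length offsets SR at ZT2 -0.34, SR at ZT10 0.36, SR at ZT22 -0.14, hnRNP at ZT2 -0.15, hnRNP at ZT10 0.28, hnRNP at ZT22 -0.0927, snRNP at ZT2 -0.37, snRNP at ZT6 0.62, snRNP at ZT22 -0.33; with members with near-identical copies left out hnRNP at ZT2 -0.19, hnRNP at ZT22 -0.15, snRNP at ZT10 0.29. When each library was left out they ranged over -0.0678 to 0.0553 (hnRNP at ZT2), 0.12 to 0.20 (SR at ZT10), -0.0008 to 0.13 (SR at ZT22), 0.0346 to 0.11 (hnRNP at ZT22), and the SR median at ZT6, which kept its sign, over 0.0545 to 0.52. The cause was not tested, other than that fewer libraries or genes entered some fits. Amplified RNA, 3 replicates and the lowest depth of 15412981 counts limit the precision inside a cluster.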
